A study of Mus musculus with 26 samples.

Results

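The regions described here are stretches of mouse noncoding RNA genes that were recovered with an antibody against 5-hydroxymethylcytosine (5hmC), an oxidised form of 5-methylcytosine, in embryonic stem cells (ESCs) and embryoid bodies (EBs). The method, hMeRIP-Seq, immunoprecipitates (IP) sonicated total RNA and compares it with the input RNA of the same sample, and the files list the resulting peaks. A peak was kept when its summit lay inside a gene that GENCODE M1 (mm9) does not type as protein-coding and outside every protein-coding gene. Of 56538 peaks in the 13 IP libraries, 1338 met this rule, against 46415 in protein-coding genes. Kept intervals that overlapped by at least 1 bp were merged into 521 regions, of 23367 regions in the whole series, and these lay in 344 of 14930 annotated noncoding genes.

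The libraries fall into 5 groups. Wild-type (WT) ESCs, ESCs lacking Tet1, Tet2 and Tet3 (TKO ESC) and WT EBs, which were grown without leukemia inhibitory factor (LIF) for 4 days, had 3 libraries each. Tet2-KI ESCs and Tet2deltaRBD-KI ESCs had 2 each. Both knock-in lines derive from WT ESCs by CRISPR, carry Flag, HA and Twin-Strep tags at the end of Tet2, and were picked as clones. The second lacks the RNA-binding domain (RBD) of Tet2. All ESCs, knock-in and TKO cells included, were grown with serum and LIF. The TKO cells came from a line made earlier, so clone and genotype cannot be told apart in any comparison of these lines.

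TET enzymes oxidise 5-methylcytosine, first described in DNA and later in RNA. Noncoding genes here are of 3 classes. Long noncoding RNAs include Xist, which coats the inactive X chromosome, and Malat1 and Neat1, which stay in the nucleus at speckles and paraspeckles. Pseudogenes are copies of other genes, often of a spliced mRNA, and the small RNA class holds genes of small nucleolar RNAs, microRNAs and other structured RNAs and, as grouped here, the mitochondrial ribosomal RNAs. Embryonic stem cells are a usual setting for the study of imprinted noncoding RNAs and of X inactivation, which starts as the cells differentiate.

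Peaks over exact or near copies need care throughout. A read from a parent mRNA can match its pseudogene, and how reads that fit several places were treated is not given in the sources used here. The lists hold no strand, so a region where genes overlap on opposite strands, as Xist and Tsix do, belongs to either. They also hold no expression, so cell identity could not be checked against markers, and a region without a peak may be unmodified, too lowly expressed or too thinly sequenced. Depth is unknown. Nor can they check the deletions: Tet1 had 1 or 2 peaks in 11 of the 13 lists, those of all 3 TKO ESC libraries included, Tet2 in 1 WT ESC and all 4 knock-in lists, and Tet3 in 1 list.

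The sequences below come from 7 of the regions described here. Each is 200 bases around the median summit of 1 region, read 5′ to 3′ on the gene's strand from the NCBIM37 (mm9) genome. In the first 3, capitals mark every copy of the 10-base word that recurred most often, counted without overlap, and in the other 4 they mark the longest run of purines.
Tsix, chrX:100651154-100651353, plus strand: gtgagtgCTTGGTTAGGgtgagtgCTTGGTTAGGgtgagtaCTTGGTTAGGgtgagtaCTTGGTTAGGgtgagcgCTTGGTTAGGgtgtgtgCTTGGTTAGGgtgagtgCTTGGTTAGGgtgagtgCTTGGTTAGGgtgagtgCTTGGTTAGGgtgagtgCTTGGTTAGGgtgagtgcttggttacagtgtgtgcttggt
Xist, chrX:100663084-100663283, minus strand: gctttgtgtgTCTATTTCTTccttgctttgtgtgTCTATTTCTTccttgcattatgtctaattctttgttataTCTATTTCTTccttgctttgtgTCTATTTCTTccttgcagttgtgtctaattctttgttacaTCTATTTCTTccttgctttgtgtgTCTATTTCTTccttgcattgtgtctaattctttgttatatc
Ppp4r1l-ps, chr2:173462291-173462490, minus strand: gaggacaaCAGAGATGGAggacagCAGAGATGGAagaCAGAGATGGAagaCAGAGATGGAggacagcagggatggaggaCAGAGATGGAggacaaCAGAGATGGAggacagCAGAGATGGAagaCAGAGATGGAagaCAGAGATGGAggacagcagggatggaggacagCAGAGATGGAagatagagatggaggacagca
Malat1, chr19:5802179-5802378, minus strand: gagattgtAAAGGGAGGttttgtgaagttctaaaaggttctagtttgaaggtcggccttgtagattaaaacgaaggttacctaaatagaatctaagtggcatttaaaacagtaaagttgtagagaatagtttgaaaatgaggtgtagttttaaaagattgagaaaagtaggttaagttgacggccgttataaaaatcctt
Pvt1, chr15:61952197-61952396, plus strand: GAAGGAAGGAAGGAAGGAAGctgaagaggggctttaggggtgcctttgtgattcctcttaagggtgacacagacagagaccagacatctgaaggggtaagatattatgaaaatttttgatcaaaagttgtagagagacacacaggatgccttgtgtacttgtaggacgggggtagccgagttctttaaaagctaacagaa
Gm11914, chr4:27794307-27794506, minus strand: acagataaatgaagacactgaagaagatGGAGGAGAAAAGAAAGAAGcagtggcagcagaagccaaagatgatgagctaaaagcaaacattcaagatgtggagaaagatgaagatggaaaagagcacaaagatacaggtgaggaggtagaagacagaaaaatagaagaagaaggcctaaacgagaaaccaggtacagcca
Dleu2, chr14:62267244-62267443, minus strand: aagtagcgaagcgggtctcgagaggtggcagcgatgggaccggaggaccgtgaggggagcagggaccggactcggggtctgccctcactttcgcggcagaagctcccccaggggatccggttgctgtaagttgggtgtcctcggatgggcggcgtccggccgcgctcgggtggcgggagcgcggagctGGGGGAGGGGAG

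The first 3 are built of repeats. In the Tsix intron the word CTTGGTTAGG recurred 10 times with a median spacing of 17 bases. In the Xist exon TCTATTTCTT recurred 6 times with a median spacing of 24 bases, in a stretch of which 75.5% of bases were C or T. In the Ppp4r1l-ps intron CAGAGATGGA recurred 10 times with a median spacing of 16, and only 17.5% of bases were C or T. The Malat1, Gm11914 and Dleu2 stretches held no 10-base word more than once. That of Pvt1 opens with 20 bases of the repeated unit GAAG, and 22% of the Gm11914 stretch were pyrimidines.

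Repeats of this kind were common among the members. A 10-base word occurred at least 3 times, without overlap, in 397 of 1338 noncoding peaks (29.7%) and in 7409 of 46415 coding-gene peaks (15.96%). With 1 peak per region the shares were 25.7% and 14.6%. Among long noncoding genes it was 37.7% of peaks, and 29.7% without Tsix, Xist and Ppp4r1l-ps. It was 8.92% in pseudogenes and 0 of 46 in small RNA genes. Nearly all peaks of Tsix (40 of 44), Xist (23 of 25) and Ppp4r1l-ps (52 of 55) held such a word, against 0 of 65 in Malat1. This measure was chosen after the sequences were seen and has no test.

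Long noncoding genes held most of the peaks. They had 978 (73.1%) in 383 regions of 221 genes, which is 5.75% of the 3845 annotated. Pseudogenes had 314 (23.5%) in 121 regions of 106 genes, 2.03% of 5209. Small RNA genes had 46 (3.44%) in 17 regions of 17 genes, 0.315% of 5395. The 481 annotated immunoglobulin gene segments held none. Most genes had a single region (263 of 344), while the 7 genes with most peaks held 312 (23.3%). In RefSeq's later annotation (GRCm38.p6), 14 of the 344 genes, with 19 peaks, are typed protein-coding, and 122, with 370 peaks, have no match.

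**Figure D1:**
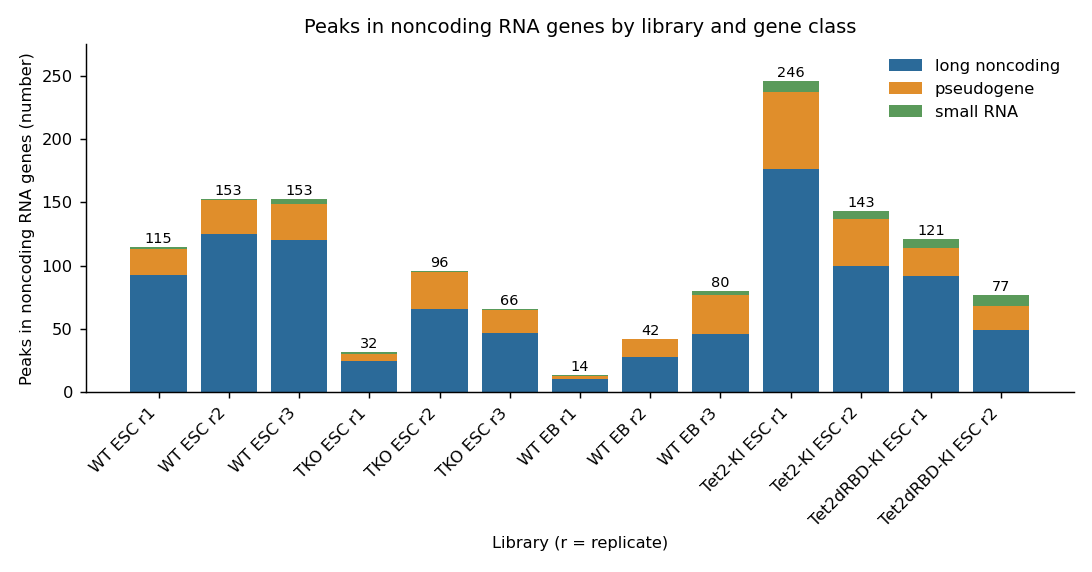
Number of peaks in noncoding RNA genes (y axis) in each of the 13 IP libraries (x axis; Tet2dRBD is Tet2deltaRBD), stacked by gene class, with the total above each bar. The 3 WT ESC libraries hold 115 to 153, above the 32 to 96 of TKO ESC and the 14 to 80 of WT EB.

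Noncoding peaks were most numerous in WT and Tet2-KI ESCs. WT ESC libraries held 115, 153 and 153, TKO ESC libraries 32, 96 and 66, WT EB libraries 14, 42 and 80, Tet2-KI libraries 246 and 143, and Tet2deltaRBD-KI libraries 121 and 77. No WT ESC library overlapped the TKO or EB libraries, and the 2 Tet2-KI libraries lay above both Tet2deltaRBD-KI libraries. On the log2 scale the WT ESC mean exceeded that of TKO ESC by 1.24 (2.37-fold) and that of WT EB by 1.95 (3.85-fold), each with p = 0.1 in a two-sided exact permutation test, the smallest that 3 against 3 libraries allow. Tet2-KI exceeded Tet2deltaRBD-KI by 0.96 (1.94-fold, exact p = 0.333, the smallest for 2 against 2). Adjusted over the 3 comparisons by Benjamini-Hochberg, these exact p-values were 0.15, 0.15 and 0.333. With 1 library left out, the log2 differences ran from 0.805 to 1.60, from 1.26 to 2.52 and from 0.567 to 1.35, in the same order. For exonic summits alone the WT ESC excess was 0.574 over TKO ESC and 0.931 over EB (each exact permutation p = 0.2).

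The noncoding share of each library's list showed no such separation. It ran from 2.02% in TKO ESC replicate 3 to 3.32% in TKO ESC replicate 1, the latter from 964 peaks in all. WT ESC had 2.37% ± 0.23 (SD, n = 3). WT minus TKO was -0.147 percentage points (exact permutation p = 0.9), WT ESC minus WT EB -0.0828 (exact p = 0.7) and Tet2-KI minus Tet2deltaRBD-KI -0.0431 (exact p = 1). Total list length moved with the counts, with 498 peaks in the shortest list (WT EB replicate 1) and 10383 in the longest (Tet2-KI replicate 1), and its part in them was not tested. In WT ESC, TKO ESC and EB the descriptions of replicate 1 begin with 1608 or, for EB, 1610, and those of replicates 2 and 3 with 1703, while those of the knock-in libraries have none. Within the 1703 libraries WT minus TKO was 0.131 points, so the sign turned, and without TKO ESC replicate 1 it was 0.252. Without WT EB replicate 1 the WT minus EB difference was 0.0945. Noncoding peaks with an exonic summit, as a share of the whole list, did differ more. For these WT minus TKO was -0.574 points and WT minus EB -0.869 (each exact permutation p = 0.1, the smallest possible).

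Class shares of the noncoding peaks were compared by their ranges. Long noncoding genes had 78.4% to 81.7% of noncoding peaks in WT ESC, 68.8% to 78.1% in TKO ESC, 57.5% to 78.6% in EB, 69.9% and 71.5% in Tet2-KI, and 63.6% and 76.0% in Tet2deltaRBD-KI. Pseudogene shares were 17.4% to 18.95% in WT ESC, 15.6% to 30.2% in TKO ESC, 14.3% to 38.8% in EB, 24.8% and 25.9% in Tet2-KI, and 18.2% and 24.7% in Tet2deltaRBD-KI. The pseudogene ranges of TKO ESC and EB spanned that of WT ESC on both sides, while the long noncoding range of TKO ESC lay below that of WT ESC and that of EB reached into it. Small RNA genes reached 11.7% in Tet2deltaRBD-KI replicate 2, from 9 peaks. These ranges were not tested.

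Most regions were found in few libraries. Of 521 regions, 268 were in 1 library, 33 in 7 or more and 3 in all 13, and 24 were in at least 1 library of every group. The 22 regions in 9 or more libraries lay in 12 genes. In 15 of the 22 the summit was exonic, in 15 less than 40% of bases were pyrimidines, and in 2, both in Xist, more than 60% were. Over all regions, 82 of 383 long noncoding, 100 of 121 pseudogene and 17 of 17 small RNA regions were exonic. The median pyrimidine share of all noncoding peaks was 40%. Several of the 22 share a gene, and no trait of widely listed regions was tested. Of 254 regions in any WT ESC library 47 were in every one (18.5%, beside 13.2% of all regions of the series). For TKO ESC it was 14 of 126 (11.1%, beside 5.90%) and for EB 5 of 93 (5.38%, beside 2.79%). With 2 libraries a group, it was 81 of 288 for Tet2-KI (28.1%, beside 24.1%) and 42 of 151 for Tet2deltaRBD-KI (27.8%, beside 21.8%). These shares were not tested.

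**Figure D2:**
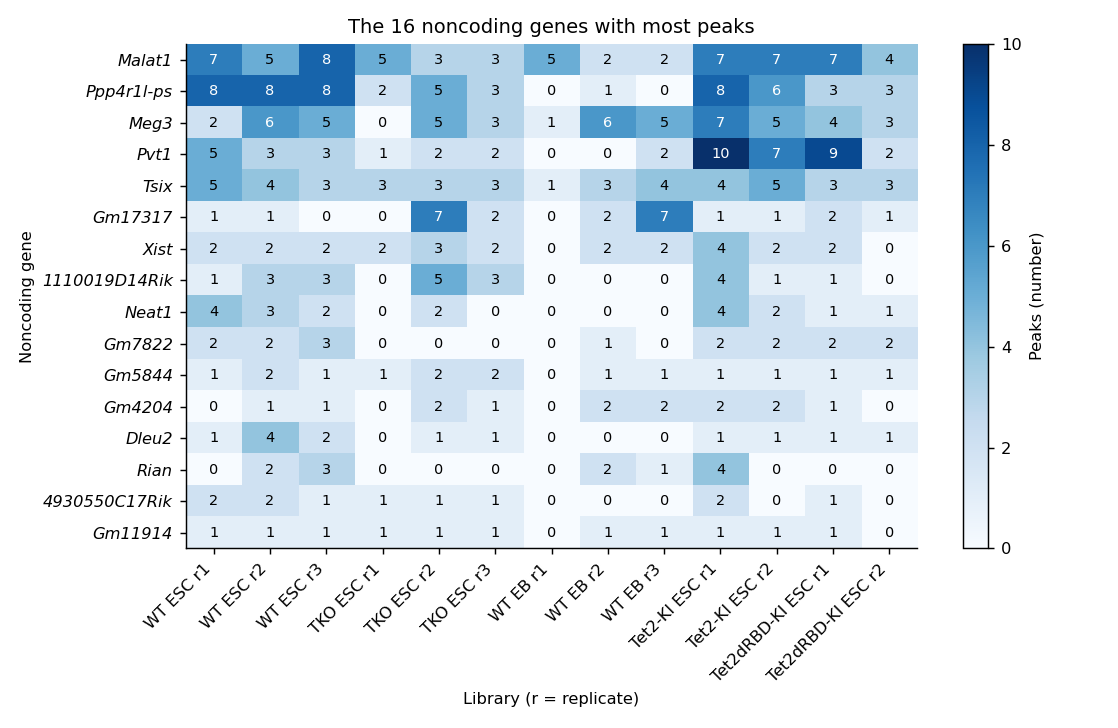
Number of peaks in each library (columns, r = replicate; Tet2dRBD is Tet2deltaRBD) for the 16 noncoding genes with most peaks (rows), with darker blue for more. Malat1 and Tsix have a peak in all 13 libraries, Ppp4r1l-ps has 8 in each WT ESC library and at most 1 in an EB library, and Gm17317 has its most, 7, in TKO ESC replicate 2 and WT EB replicate 3.

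The X inactivation centre gave the most enriched regions. Of 4 listed genes 3 were matched and 2 held a peak, beside 5.75% of all annotated long noncoding genes. Xist and Tsix, the antisense transcript that restrains Xist, held 69 peaks in 9 regions, while Jpx, an activator of Xist, held none. The Tsix region from 100651103 to 100651565 on chromosome X, in an intron 24.4 kb from the gene's start, was present in all 13 libraries. Its fold enrichment over input, the fifth column of the lists and given for 9 libraries, was 28.9, 28.2 and 22.5 in WT ESC. It was 14.6, 23.3 and 12.6 in TKO ESC and 9.53, 4.98 and 8.87 in EB. All WT ESC values lay above all EB values, and 1 TKO value lay within the WT range. Means were 26.6 ± 3.5, 16.8 ± 5.7 and 7.80 ± 2.5 (SD, n = 3 each). With 3 libraries a group no exact permutation test of such values can go below 0.1, here and for the regions that follow.

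Neighbouring Tsix regions had the same order of means. That from 100650550 to 100650803 was in 12 libraries, with 19.5, 12.5 and 23.6 in WT ESC, 8.50, 9.97 and 6.14 in TKO ESC, and 7.66 and 4.79 in EB replicates 2 and 3. WT ESC did not overlap the others. That from 100652249 to 100652583, also in 12, had 12, 10.2 and 8.13 in WT ESC, 9.26, 7.57 and 5.39 in TKO ESC, and 5.97 and 5.57 in EB, so that WT and TKO overlapped. These 3 regions lie 3.13 to 5.16 kb beyond the annotated 3′ end of Xist. The other 2 Tsix regions were in 1 and 2 libraries.

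Xist peaks stood in a different order. The region from 100662987 to 100663309, exonic and 15.4 kb from the gene's start, was in 11 libraries. Its fold was 4.88, 27.1 and 19.1 in WT ESC, 8.11, 37.2 and 19.1 in TKO ESC, and 30.7 and 57.6 in EB replicates 2 and 3. Replicate 1 was lowest in WT and TKO ESC, and both EB values lay above all WT values. The adjoining region from 100662583 to 100662975 gave 9.01, 16.5 and 16.9 in WT ESC, 6.54, 25.5 and 31.2 in TKO ESC, and 27.9 and 50.2 in EB. Neither was listed in EB replicate 1, which has the shortest list, nor in Tet2deltaRBD-KI replicate 2. They had the highest mean folds of all regions in 3 or more libraries, 25.5 and 23.0, and 76.4% and 74.8% of their bases were pyrimidines on the Xist strand. Xist RNA is known for blocks of tandem repeats, one of them rich in C and U. Since Tsix spans this stretch on the other strand, the source RNA cannot be told apart.

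**Figure D3:**
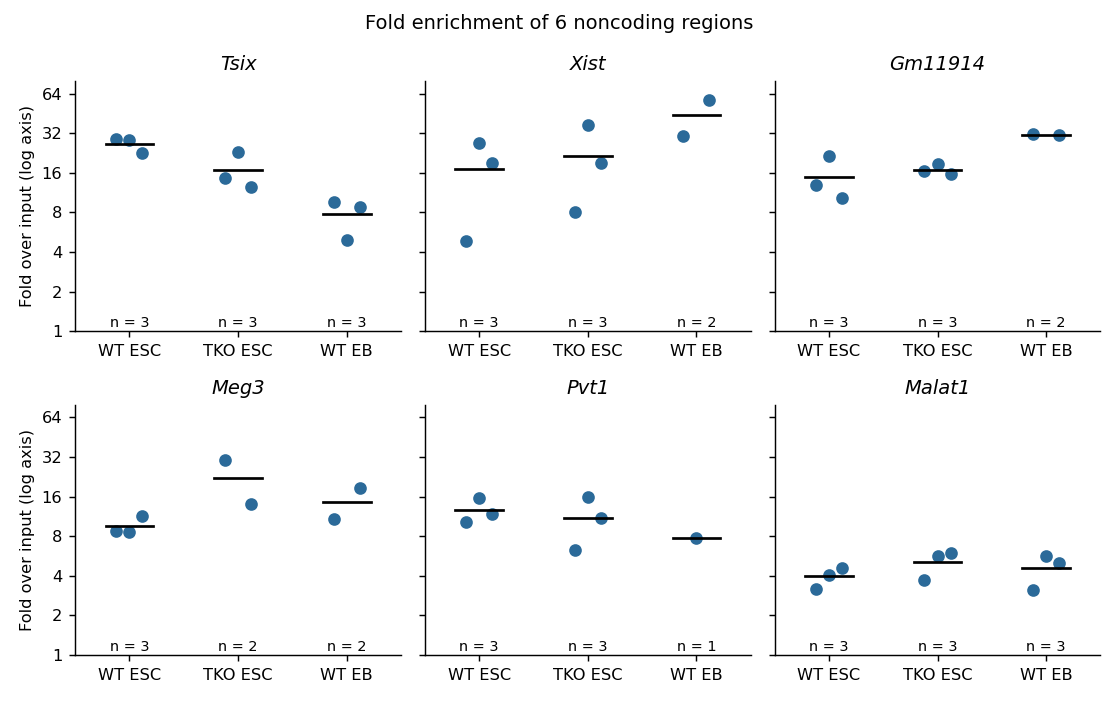
Fold enrichment over input (log axis) of the region present in most libraries in each of 6 genes, 1 point per library in which it was listed, with the mean as a bar and n below. Tsix values run from 22.5 to 28.9 in WT ESC, with 1 TKO ESC value (23.3) in that range, and from 4.98 to 9.53 in EB, Xist and Gm11914 have their highest means in EB, and Malat1 lies between 3.09 and 5.94 in all 3 groups.

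Among 5 listed nuclear RNAs, 4 held 93 peaks in 18 regions, beside 5.75% of all annotated long noncoding genes with a peak, and Miat held none. Malat1 has the most peaks of any member, 65 of the 72 inside it, the rest being assigned to another noncoding gene there. Its 65 were listed in every library, with 7, 5 and 8 in WT ESC, 5, 3 and 3 in TKO ESC, 5, 2 and 2 in EB, 7 and 7 in Tet2-KI, and 7 and 4 in Tet2deltaRBD-KI. WT counts touched those of TKO ESC and EB at 5. All were exonic and their folds were low. The region from 5802159 to 5802391 on chromosome 19, 0.392 kb from the 5′ end of this 6.98 kb gene, was in all 13 libraries. Its fold was 3.20, 4.09 and 4.61 in WT ESC, 3.73, 5.68 and 5.94 in TKO ESC, and 3.09, 5.61 and 5.00 in EB, and the 3 groups overlapped. The region from 5801675 to 5801932, also in all 13, ranged from 1.83 to 3.19. A region 2.76 kb from the 5′ end was in all 3 WT ESC libraries, in 2 Tet2-KI and 1 Tet2deltaRBD-KI, and in no TKO or EB library, with folds of 1.88 to 2.86.

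Neat1, the scaffold of paraspeckles, had 4, 3 and 2 peaks in WT ESC, 0, 2 and 0 in TKO ESC, none in EB, 4 and 2 in Tet2-KI, and 1 and 1 in Tet2deltaRBD-KI. WT and TKO counts touched at 2. Its region from 5843151 to 5843380 on chromosome 19 was in all 3 WT ESC libraries (6.43, 4.62 and 5.53) and both Tet2-KI libraries and in no other. Tug1 had 1 intronic region (3548485 to 3548774 on chromosome 11) in all 3 WT ESC libraries (7.24, 2.93 and 4.37), 1 Tet2-KI and both Tet2deltaRBD-KI libraries, and in no TKO or EB library. Firre, which sits at the nuclear matrix, had 2 regions, in Tet2-KI libraries alone.

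Imprinted noncoding genes held 77 peaks in 27 regions, with a peak in all 6 of the 9 listed that were matched, beside 5.75% of all annotated long noncoding genes. Meg3, expressed from the maternal allele of the Dlk1-Dio3 locus, gave 52 of them. It had 2, 6 and 5 peaks in WT ESC, 0, 5 and 3 in TKO ESC, 1, 6 and 5 in EB, 7 and 5 in Tet2-KI, and 4 and 3 in Tet2deltaRBD-KI. WT, TKO and EB counts overlapped, and each Tet2-KI library had more than either Tet2deltaRBD-KI library. Of its 13 regions 7, with 44 peaks, lay in exons between 18.7 and 21.1 kb from the start of this 30.7 kb gene. The region from 110799031 to 110799264 on chromosome 12 was in 11 libraries. Its fold was 8.83, 8.64 and 11.4 in WT ESC, 30.1 and 13.98 in TKO ESC replicates 2 and 3, and 10.8 and 18.5 in EB replicates 2 and 3. The TKO values lay above WT, and TKO replicate 1 had no peak.

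Rian and Mirg, transcripts of the same locus that host small RNAs, had 12 and 2 peaks. Rian was in 2 WT ESC, 2 EB, 1 Tet2-KI and no TKO or Tet2deltaRBD-KI libraries, in 6 regions of which none was in more than 3 libraries. H19, a maternally expressed RNA that is the precursor of a microRNA, had 5 peaks assigned to it in 4 libraries and none in WT ESC. In all 7 peaks lay inside H19, and the others were assigned to a noncoding gene that overlaps it. The 5 thus do not show every library with a peak there. The H19 region from 149763770 to 149764000 on chromosome 7 was in 1 TKO ESC (11.6), 2 EB (9.63 and 7.49) and 1 Tet2-KI library. Airn, which silences Igf2r in cis, had 4 kept peaks in 3 intronic regions, in 2 WT ESC libraries, and Nespas 2, in 1 Tet2-KI library. Another 4 peaks of Airn and 22 of Nespas lay also in a coding gene and were not kept, so these counts do not show in which libraries either gene had peaks at all.

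**Figure D4:**
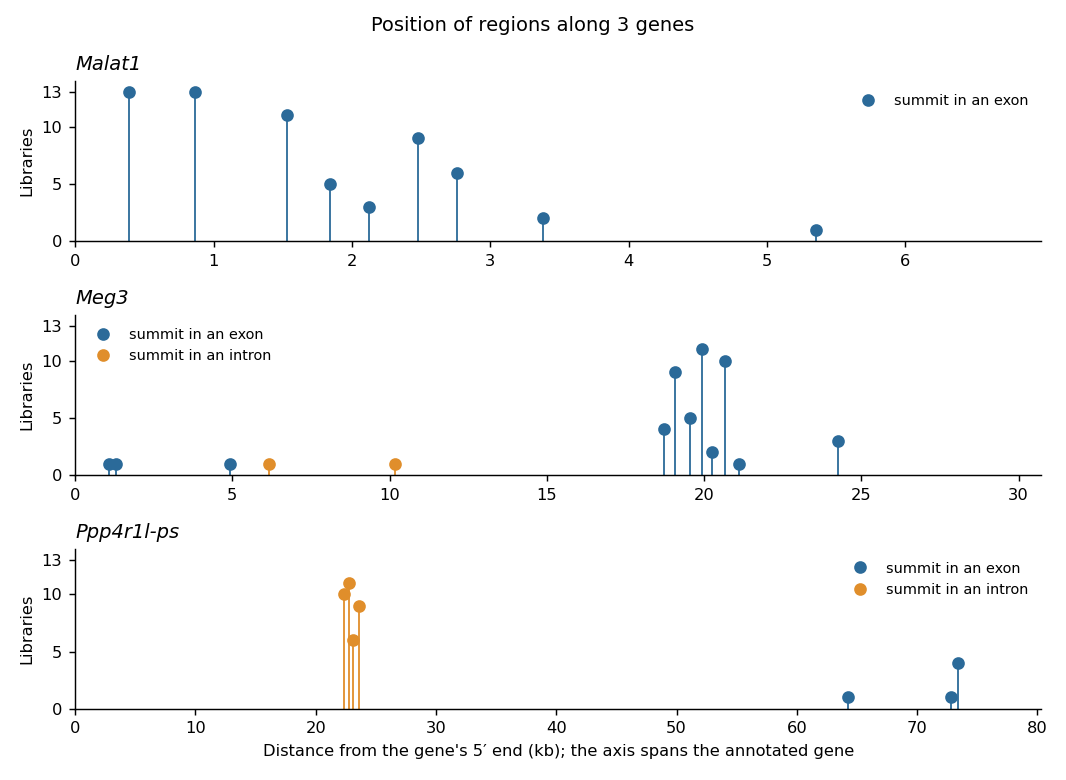
Number of libraries (y axis, of 13) in which each region of Malat1, Meg3 and Ppp4r1l-ps was listed, against its distance from the gene's 5′ end in kb (x axis, spanning the annotated gene), coloured by exon or intron. Regions of Malat1 in 11 or more libraries lie within 1.53 kb of the 5′ end, 7 Meg3 regions lie between 18.7 and 21.1 kb, and 4 intronic Ppp4r1l-ps regions lie between 22.4 and 23.6 kb.

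Pvt1, a neighbour of Myc that hosts microRNAs, had the most regions of any member, 17, all intronic over a gene of 340.1 kb. It held 5, 3 and 3 peaks in WT ESC, 1, 2 and 2 in TKO ESC, 0, 0 and 2 in EB, 10 and 7 in Tet2-KI, and 9 and 2 in Tet2deltaRBD-KI. WT lay above TKO and EB, while the knock-in lines overlapped. The region shown above, from 61952177 to 61952412 on chromosome 15, was in 11 libraries, with 10.2, 15.7 and 11.8 in WT ESC, 6.31, 15.9 and 11.02 in TKO ESC, and 7.72 in EB replicate 3. A run of repeats of a short unit was found in 6 of its 11 peaks. Beside it, the region from 61951728 to 61952117 was in every WT ESC (9.80, 12.4 and 9.29) and no EB library, and in TKO replicates 2 and 3 (6.23 and 14.3).

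Ppp4r1l-ps, typed lincRNA in GENCODE M1 and transcribed pseudogene in RefSeq, held 8 peaks in each WT ESC library, 2, 5 and 3 in TKO ESC, 0, 1 and 0 in EB, 8 and 6 in Tet2-KI, and 3 and 3 in Tet2deltaRBD-KI. WT ESC lay above TKO and EB, and Tet2-KI above Tet2deltaRBD-KI. The 4 regions in most libraries lie within the purine-rich repeat in its intron. In that from 173462282 to 173462510 on chromosome 2 the fold was 12.2, 15.7 and 9.47 in WT ESC, 7.04, 9.42 and 6.42 in TKO ESC, and 11.4 in EB replicate 2. The lowest WT value lay just above the highest TKO value.

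Gm17317, an unnamed lincRNA of 321 kb with 12 intronic regions, showed another distribution. It had 1, 1 and 0 peaks in WT ESC, 0, 7 and 2 in TKO ESC, 0, 2 and 7 in EB, 1 and 1 in Tet2-KI, and 2 and 1 in Tet2deltaRBD-KI. Within the TKO and EB groups 1 library each had most of the peaks. Its region from 146706236 to 146706474 on chromosome 4 was in 2 TKO libraries (13.8 and 12.2) and 1 EB library (22.9) and in no other.

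Host genes of small nucleolar RNAs (snoRNAs), whose introns carry the snoRNAs, held 15 peaks in 7 regions. These lay in 4 of the 9 genes matched by name of 13 listed, beside 5.75% of all annotated long noncoding genes with a peak, and Snhg11, typed protein-coding, could hold none by the rule. Snhg12 had 1 exonic region in 6 libraries, in 2 WT ESC (12.6 and 6.47), 1 TKO ESC (7.63), 2 Tet2-KI and 1 Tet2deltaRBD-KI. Gas5 had 7 peaks assigned to it, of 11 inside it, in 2 WT ESC and both Tet2-KI libraries. The region of SNORD24, a small RNA gene within Gas5, was also in 1 TKO ESC and 1 EB library. Snhg4, with 2 peaks inside it, and Snhg5 were assigned 1 each, in Tet2-KI replicate 2 alone. Snhg1, Snhg3, Snhg7 and Snhg9 had none that met the rule. Of 2 matched microRNA hosts Mir17hg had none. Of 2 matched stem cell RNAs Cyrano, which directs decay of a microRNA, had 2 regions in knock-in libraries and Rmst none. In all, 28 of the 47 listed genes were matched by name, and 19 held 304 peaks (22.7%).

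Of the 46 small RNA peaks, 20 lay in 5 snoRNA genes, 16 in 6 genes of type misc_RNA, 6 in 4 microRNA genes and 4 in the 2 mitochondrial ribosomal RNA genes. SCARNA17, a Cajal body RNA that guides modification of spliceosomal RNAs, was in 10 libraries. Its fold was 3.44, 4.34 and 4.79 in WT ESC, 3.36 and 6.90 in TKO ESC replicates 1 and 2, and 4.07 in EB replicate 3, so that the WT values lay between the TKO values. All 4 knock-in libraries listed it. The region of SNORD24, which the annotation places within Gas5, was in 5 libraries, in 4 of which the peak is assigned to SNORD24 and in 1 to Gas5. AC157822.1, of type misc_RNA, was in 5, and Scarna2, another Cajal body RNA, in 4. A gene named 7SK, the name of the RNA that holds back the elongation factor P-TEFb and of its many copies, was in 1 Tet2-KI library.

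The pseudogene regions in most libraries lay in exons with less than 40% pyrimidines. Gm5844 (17909404 to 17909648 on chromosome 3) was in 12, with 3.99, 3.74 and 3.64 in WT ESC, 3.01, 7.59 and 4.91 in TKO ESC, and 5.87 and 6.58 in EB. EB values lay above WT, and TKO values spanned both. Gm11914 (27794282 to 27794519 on chromosome 4) was in 11. Its fold was 13.01, 21.7 and 10.2 in WT ESC, 16.4, 18.8 and 15.7 in TKO ESC, and 31.5 and 31.2 in EB, where both values lay above the others. Gm4204 was in 9 libraries, with a mean fold of 9.39 ± 2.5 (SD, n = 6). Pyrimidines made up 24.7%, 21.8% and 39.4% of their bases.

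The comparison of WT with TKO ESC asks which regions are listed with the TET enzymes present and not without them. Of 47 noncoding regions in every WT ESC library, 16 were in no TKO ESC library, 34.0% (exact Clopper-Pearson 95% interval 20.9 to 49.3, counting error only). Over all regions of the series it was 32.2%, which lies within this interval. The 4 with the highest lowest WT fold were in Gm7822, Dleu2, 1700016G14Rik and G630018N14Rik, all in introns. Gm7822 (65883448 to 65883887 on chromosome 13) had 10.7, 11.2 and 11.6 in WT ESC and was also in 1 EB (12.4) and all 4 knock-in libraries. Dleu2 (62267222 to 62267477 on chromosome 14), the host of miR-15a and miR-16-1, had 11.2, 7.37 and 7.86, and was in all 4 knock-in libraries and no EB library. The other 2 had WT folds of 5.73 to 12.1 and 5.26 to 7.10. Of the 16 regions, 12 were in a Tet2-KI library, 5 in a Tet2deltaRBD-KI library and 3 in an EB library. The same counts were not made over all regions of the series, so they are not read as a trait of noncoding regions. List lengths also differ, with a mean of 8082 peaks in Tet2-KI and 3978.5 in Tet2deltaRBD-KI.

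These counts moved with the libraries used. The 16 became 32 of 75 (42.7%, beside 41.4% of all regions), 31 of 65 (47.7%, beside 43.6%) and 23 of 57 (40.4%, beside 42.2%) without WT ESC replicate 1, 2 or 3. Without TKO ESC replicate 1, 2 or 3 they became 18 of 47 (38.3%, beside 36.6%), 20 of 47 (42.6%, beside 39.8%) and 16 of 47 (34.0%, beside 45.5%). Within the 1703 libraries it was 35 of 76 (46.1%, beside 43.98%). The noncoding share thus lay above that of all regions in some of these settings and below it in others. In the other direction 0 of 14 regions in every TKO library were absent from WT ESC (interval 0 to 23.2), beside 1.73% of all regions. Without TKO ESC replicate 1, whose list is the shortest of the group, it was 9 of 42 (21.4%), beside 18.8% of all regions of the series counted the same way, and with any other WT or TKO library left out it was 0. Of 48 regions in at least 2 of 3 TKO libraries, 9 were in no WT ESC library (18.75%, interval 8.95 to 32.6), beside 17.4% of all regions, a share within the interval. Among the 9 were 2 of Gm17317 and 1 each of Gm12141 and Gm5909, which were named after their values were seen. Gm12141 was also in 2 EB and 2 Tet2-KI libraries.

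Between WT ESC and EB the question is what changes as the cells differentiate. Of the 47 regions, 26 were in no EB library, 55.3% (interval 40.1 to 69.8), beside 54.9% of all regions, again within the interval. Of these 26, 13 were also in no TKO library, a count that was not made over all regions of the series. Among the 26, those with the highest lowest fold were in Pvt1, Dleu2, Gm16627 (7.10, 9.54 and 9.64) and Gm16641 (16.4, 6.76 and 21.3). The count was 48 of 75 (64%, beside 60.6%), 42 of 65 (64.6%, beside 64.1%) and 34 of 57 (59.6%, beside 62.8%) without WT ESC replicate 1, 2 or 3. Without EB replicate 1, 2 or 3 it was 29 of 47 (61.7%, beside 59.9%), 28 of 47 (59.6%, beside 62.7%) and 30 of 47 (63.8%, beside 60.9%). Within the 1703 libraries it was 52 of 76 (68.4%, beside 63.7%). Here too the noncoding share lay on either side of that of all regions. None of 5 regions in every EB library was absent from WT ESC (interval 0 to 52.2), beside 2.61%, and without WT EB replicate 1 the count was 6 of 30 (20%), beside 22.2%. It was 1 of 6 without WT EB replicate 2, beside 7.30%, and 0 with any other WT ESC or EB library left out. Of 31 regions in at least 2 of 3 EB libraries, 7 were in no WT ESC library (22.6%, interval 9.59 to 41.1), beside 21.9% of all regions, again within the interval, with 3 of the 7 in Gm13824 and 1 each in Gm12141, Gm12444, Gm17317 and H19.

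The knock-in lines address the RNA-binding domain of Tet2. Of 81 regions in both Tet2-KI libraries, 31 were in neither Tet2deltaRBD-KI library, 38.3% (interval 27.7 to 49.7), beside 35.6% of all regions, also within it. Those in most other libraries were Gm14535 (in 7 of the 9 WT, TKO and EB libraries), Gm15500 (6), Gm9892 (5) and Gm14681 (5). Their WT ESC, TKO ESC and EB folds ran from 4.26 to 15.7. In the other direction it was 4 of 42, 9.52% (interval 2.66 to 22.6), beside 15.8% of all regions, within the interval as well. The 4 were Sox2ot, which overlaps the pluripotency gene Sox2, mmu-mir-2134-1, AY036118 and Telomerase-vert, the annotation's name for a telomerase RNA gene. Sox2ot's was also in 2 WT ESC (12.96 and 11.4) and 1 TKO ESC library (4.25), the others in none. The 31 became 68 of 136 without Tet2-KI replicate 1 (50%, beside 55.5% of all regions) and 157 of 233 without Tet2-KI replicate 2 (67.4%, beside 69.4%). They became 50 of 81 without Tet2deltaRBD-KI replicate 1 (61.7%, beside 66.9%) and 34 of 81 without Tet2deltaRBD-KI replicate 2 (41.98%, beside 40.1%), so that the noncoding share lay below that of all regions in 3 of these 4 settings. The 4 became, in the same order, 8 of 42 (19.05%, beside 27.0%), 10 of 42 (23.8%, beside 26.4%), 31 of 75 (41.3%, beside 49.3%) and 30 of 118 (25.4%, beside 30.4%), below all regions each time. The lists of this pair have no fold column.

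Fold enrichment over input was compared as the median log2 fold of a library's noncoding peaks. Medians were 6.03, 5.20 and 5.39 in WT ESC, 6.51, 7.77 and 6.37 in TKO ESC, and 4.96, 6.92 and 7.60 in EB. Coding-gene peaks of the same libraries had medians of 6.23, 5.82 and 5.69 in WT ESC, 6.11, 7.31 and 6.68 in TKO ESC, and 5.43, 7.39 and 7.09 in EB. In noncoding peaks all TKO values lay above all WT values, while in coding-gene peaks the lowest TKO value lay below the highest WT value. The log2 difference WT minus TKO in noncoding peaks was -0.31 (exact permutation p = 0.1, the smallest possible, adjusted 0.2). WT minus EB was -0.21 (exact p = 0.4, adjusted 0.4), and the groups overlapped. Fold depends on input coverage, which the lists do not give.

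**Figure D5:**
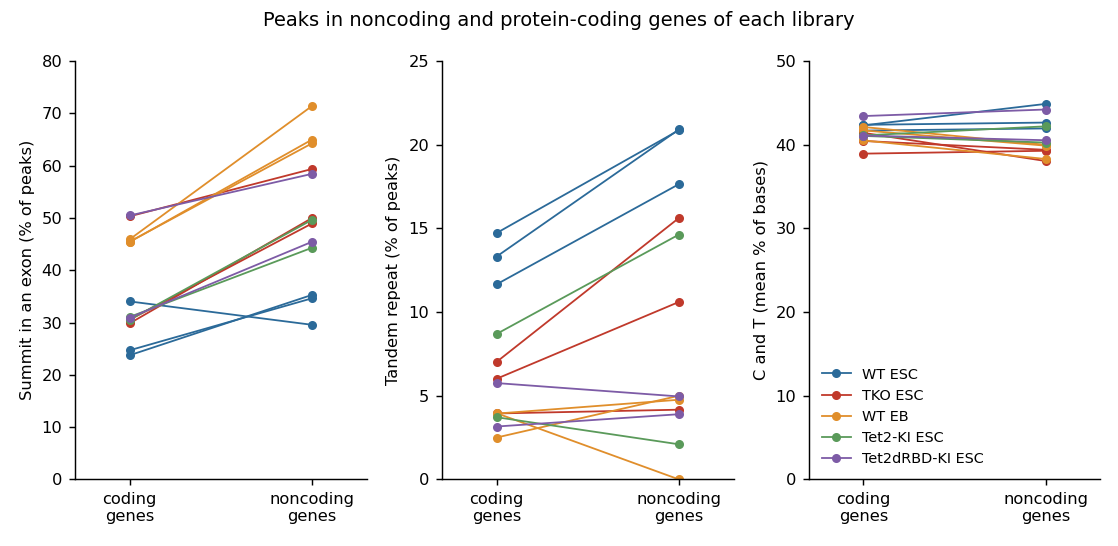
Each line joins the peaks in protein-coding genes and in noncoding genes of 1 library (13 libraries, coloured by group; Tet2dRBD is Tet2deltaRBD) for the percent with an exonic summit, the percent with a tandem repeat and the mean percent of C and T. The exonic share is higher in noncoding genes in 12 of 13 libraries and the tandem repeat share in 10 of 13.

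Set against the coding-gene peaks of the same libraries, noncoding peaks were more often exonic. Their exonic share was 50.5% ± 12.8 against 36.4% ± 9.7 (SD, n = 13), a difference of 14.1 points, higher in 12 of 13 libraries (exact sign-flip permutation test p = 0.000488, adjusted over 4 measures 0.00195). WT ESC replicate 1 was the exception. By class, 89.5% of pseudogene peaks, 100% of small RNA peaks and 28.8% of long noncoding peaks were exonic, beside 32.9% of coding-gene peaks. Without pseudogenes it was 1.72 points (exact p = 0.664), and for long noncoding genes alone -1.29 (exact p = 0.698). Exons make up 4.23% of the span of the long noncoding genes with a peak and 5.01% of the coding genes with one.

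Tandem repeats, here runs of at least 18 bases (20 for units of 4) of a unit of 1 to 4 bases, were narrowly more frequent in noncoding peaks. The share was 9.63% ± 7.4 against 6.80% ± 4.1 (n = 13), higher in 10 of 13 libraries (exact sign-flip permutation p = 0.0244, adjusted 0.0488). This call rests on single libraries: left out 1 at a time, 10 of the 13 took the adjusted p over 0.05, and it ran from 0.0186 (without WT EB replicate 1) to 0.0977 (without WT ESC replicate 3 or TKO ESC replicate 1). The others that kept it under 0.05 when left out were Tet2-KI replicate 2 and Tet2deltaRBD-KI replicate 1. In WT ESC it was 20.9%, 17.6% and 20.9%, above all other libraries, and in coding-gene peaks WT ESC was highest too (11.7% to 14.7%). Long noncoding genes had 13.5% of peaks with one and pseudogenes 6.69%.

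Differences in base composition and fold between the 2 kinds of gene did not pass the test. Noncoding peaks had 40.9% ± 2.1 pyrimidines on the gene's strand and coding-gene peaks 41.4% ± 1.1 (difference -0.51 points, exact sign-flip permutation p = 0.276, lower in 7 of 13). With peaks that hold a tandem repeat left out it was -0.87 (exact p = 0.0164). Whole gene spans of the members had 50.6% (long noncoding), 50.2% (pseudogenes) and 47.5% (small RNA), against 42.7%, 37.3% and 44.7% in their peaks. At most 35% pyrimidines were found in 427 noncoding peaks (31.9%), against 24.7% of coding-gene peaks, and at least 65% in 127 (9.49%), against 3.55%. GAGAGA was in 24.3% of noncoding and 21.96% of coding-gene peaks on the gene's strand, and its reverse complement TCTCTC in 12.3% and 6.41%. In the median log2 fold the 2 kinds differed by -0.034 (exact p = 0.332, lower in 6 of 9 libraries).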

How the data were processed

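Peaks were called by the authors from hMeRIP-Seq of 13 IP libraries, each against its own input, of which the 13 inputs are not analysed here. After AfterQC, removal of rRNA and tRNA reads with Bowtie2 and trimming with Trimmomatic, they mapped reads to mm9 with STAR and called peaks with MACS2 (q-value under 0.05). The deposited lists give 200 bp around each summit and, except for the 4 knock-in libraries, the fold enrichment over input, a ratio. Read counts were not used and depth is unknown.

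The summit was taken as the interval's midpoint and placed in GENCODE M1 genes on NCBIM37. Where several noncoding genes held it, an exonic one was preferred, then the shorter. Counts by gene therefore leave out peaks assigned to another noncoding gene that overlaps it. Of all peaks, 163 lay on sequences outside this reference, and none ran past a chromosome's end. At most 1.97% of intervals were identical between 2 lists, so all libraries were counted as separate. Groups were compared by two-sided exact permutation tests over libraries, and noncoding with coding-gene peaks by sign-flip permutation within libraries, adjusted by Benjamini-Hochberg within each family of comparisons. Intervals are 95% and cover counting error only. The counts of group-specific regions were checked on simulated lists with planted regions, and the permutation and sign-flip tests on small sets of fixed values. The tools were scipy 1.17.1, matplotlib 3.10.9, numpy 2.4.6 and pandas 2.3.3, run in Python 3.11.15.

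Named were the genes of a list of 47 known noncoding RNAs that hold a region, the 8 regions in most libraries, up to 4 per group-specific set, the 5 with the highest mean fold, the 5 genes with most regions and 3 regions per class. Members and lists were chosen with earlier results of these data known.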

Additional observations from a re-analysis of the deposited data

How the results depend on the processing

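Of 256 alternative values 215 kept their direction and their side of the threshold, or, for counts, stayed within 1.5 times. The side of the threshold was judged here on p-values before adjustment. The 215 therefore include all 13 left-out settings of the tandem repeat difference, of which 10 did not pass after adjustment. Leaving out 1 library gave ranges, for the share of noncoding peaks, of -0.396 to 0.252 points (WT minus TKO), -0.204 to 0.0945 (WT minus EB) and -0.187 to 0.101 (Tet2-KI minus Tet2deltaRBD-KI). Regions in every library of a group and none of the other ranged from 16 to 32 of 47 to 75 (WT, no TKO; 34.0% to 47.7%, over all regions of the series 36.6% to 45.5%), 0 to 9 of 14 to 42 (the reverse; 0 to 21.4%, all 2.59% to 18.8%), 28 to 48 of 47 to 75 (WT, no EB; 59.6% to 64.6%, all 59.9% to 64.1%), 0 to 6 of 5 to 30 (the reverse; 0 to 20%, all 3.31% to 22.2%), 34 to 157 of 81 to 233 (Tet2-KI, no Tet2deltaRBD-KI; 41.98% to 67.4%, all 40.1% to 69.4%) and 8 to 31 of 42 to 118 (the reverse; 19.05% to 41.3%, all 26.4% to 49.3%). In the order of the first 4, presence in 2 of 3 replicates gave 54 of 103 (all 49.6%), 9 of 48, 72 of 103 (all 67.7%) and 7 of 31, and the 1703 libraries alone 35 of 76, 9 of 42 (all 19.5%), 52 of 76 (all 63.7%) and 6 of 30 (all 23.6%), where fewer libraries are required. Exonic summits alone gave 4 of 18 (WT, no TKO; all 20%), 6 of 18 (WT, no EB; all 29.4%) and 16 of 46 (Tet2-KI; all 36.0%), and a fold of at least 5 gave 6 of 21 (all 31.995%) and 9 of 21 (all 53.8%), from fewer peaks. Without pseudogenes the share differences were 0.00626 (WT minus TKO) and 0.172 points (WT minus EB), the exonic difference 1.72 and the pyrimidine difference 0.705. The WT minus TKO share within the 1703 libraries was 0.131. The tandem repeat difference passed after adjustment over the 4 measures in 3 of 13 left-out libraries (adjusted p 0.0186 to 0.0977) and the exonic difference in 13. With long noncoding genes only, an alternative chosen after seeing the data, the exonic difference was -1.29 and the pyrimidine difference 0.584. Without tandem-repeat peaks the pyrimidine difference was -0.872 (exact p = 0.0164), and with a fold of at least 5 the log2 fold difference was 0.00559. Apart from those whose construction is named, the cause was not tested. The lists' unknown depth limits every statement on absence.

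Replicate numbers were shared between groups. Correlations of same-numbered libraries' deviations over noncoding regions were 0.145, 0.104 and 0.0808 for WT and TKO ESC, where 6 of 6 libraries correlated best with their own number, and at most 0.0714 for WT ESC and EB, where 2 of 6 did. The first is a hint from the data and not from the design, and the samples were treated as sharing only a number. With the replicate number as a block the differences were 1.24, 1.95 and 0.96 (log2 peak number), -0.147, -0.0828 and -0.0431 points (share), and -0.31 and -0.21 (log2 fold), and no exact sign-flip permutation p passed 0.05, the smallest possible being 0.25 for 3 pairs and 0.5 for 2.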
